A study of Mus musculus with 6 samples.

Results

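A set of 10 genes of the G1 step of the cell cycle was examined in cortical cells of mouse embryos whose mothers had received saline or phenobarbital: the D cyclins Ccnd1, Ccnd2 and Ccnd3, their kinases Cdk4 and Cdk6, the CIP/KIP inhibitors Cdkn1a, Cdkn1b and Cdkn1c, and the INK4 inhibitors Cdkn2c and Cdkn2d. They are 10 of 20145 genes named on the array, and every probe whose accession belongs to them was taken, which gave 14 of the 55681 probes outside the control spots. Cdk4 had 3 probes, Ccnd3 and Cdkn1a had 2 each, and the other 7 genes had 1. The control group was 3 arrays of cells from C57BL/6N embryos of saline-injected dams, and the phenobarbital group was 3 arrays from embryos of dams given 80 mg/kg phenobarbital (8 mg/mL stock). Each dam was injected in pairs 6 h apart between embryonic days 10 and 11. The protocol puts the dissection of the cortex at day 12 and the labels at E12.5. Cells of both groups were dissociated and plated, and spent 4 h in culture before RNA was isolated. Phenobarbital enhances currents through GABA-A receptors, and the series asks how such receptor signals act on the specification of cortical progenitors. The labels call the cells neural progenitor cells and give no litter or culture for a replicate, so the spread that the p-values rest on may be technical.

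D cyclins bind Cdk4 or Cdk6, and the active pair phosphorylates the retinoblastoma protein and its relatives, which frees E2F factors to switch on genes of DNA replication. INK4 proteins bind Cdk4 and Cdk6 and keep D cyclins off them. CIP/KIP proteins mainly block Cdk2 complexes and also take part in assembling D cyclin complexes. In the embryonic cortex, D cyclins are known for their part in the choice of progenitors between another division and exit from the cycle, and the inhibitors p27 (Cdkn1b) and p57 (Cdkn1c) accumulate in cells that leave it.

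Values are log2 of the probe's signal over the 75th percentile of its array, so 0 is the level of that percentile. That percentile lay between 1116 and 1291 on control arrays and between 1803 and 1862 on phenobarbital arrays. Control replicate 1 shared slide 1 with all 3 phenobarbital arrays, and control replicates 2 and 3 were on slides of their own. Control replicate 2 stood apart, with Pearson's r across tested probes of 0.987 and 0.982 to the other controls, against 0.995 between those. Among 34672 probes tested with limma, 16.2% passed an adjusted p of 0.05, 6.97% rising and 9.24% falling, and the groups did not overlap for 44% of them. Rises were 43% of these calls, against 59.1% after quantile normalization, 62.7% after scaling to the median, 66.6% with a percentile of only those probes that were above background on all arrays, and 25.6% with the normexp background correction. The median log2 fold change, phenobarbital minus control, was -0.15. Leaving out control replicate 2 gave 5880 calls against 5618, while leaving out any 1 of the other arrays gave 1374 to 2488.

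All 14 member probes entered the test, 1 of them, a dim Cdkn1a probe, only through the phenobarbital arrays. Of these, 3 rose (Ccnd1, 1 probe of Cdk4, and Cdk6), 1 fell (Cdkn1c) and 10 did not pass. That is 28.6% of the member probes, against 16.2% of all probes. The groups did not overlap for 11 of the 14 probes, that dim Cdkn1a probe among them, against 44% of all probes. The median log2 fold change of the 14 was -0.31. With the slide as a block, the difference is that of control replicate 1 alone from the 3 phenobarbital arrays, and the spread between samples comes from the phenobarbital arrays only. Control replicate 1 is then assumed to vary as they do, so a pass in that fit supports no call. In it, Ccnd1 alone had an adjusted p under the threshold. Ccnd1 was also the 1 member that passed whichever single array was left out. Without control replicate 2, Cdkn1b passed in place of Cdkn1c and the count stayed at 4, and without any 1 of the other arrays Ccnd1 alone did.

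**Figure D1:**
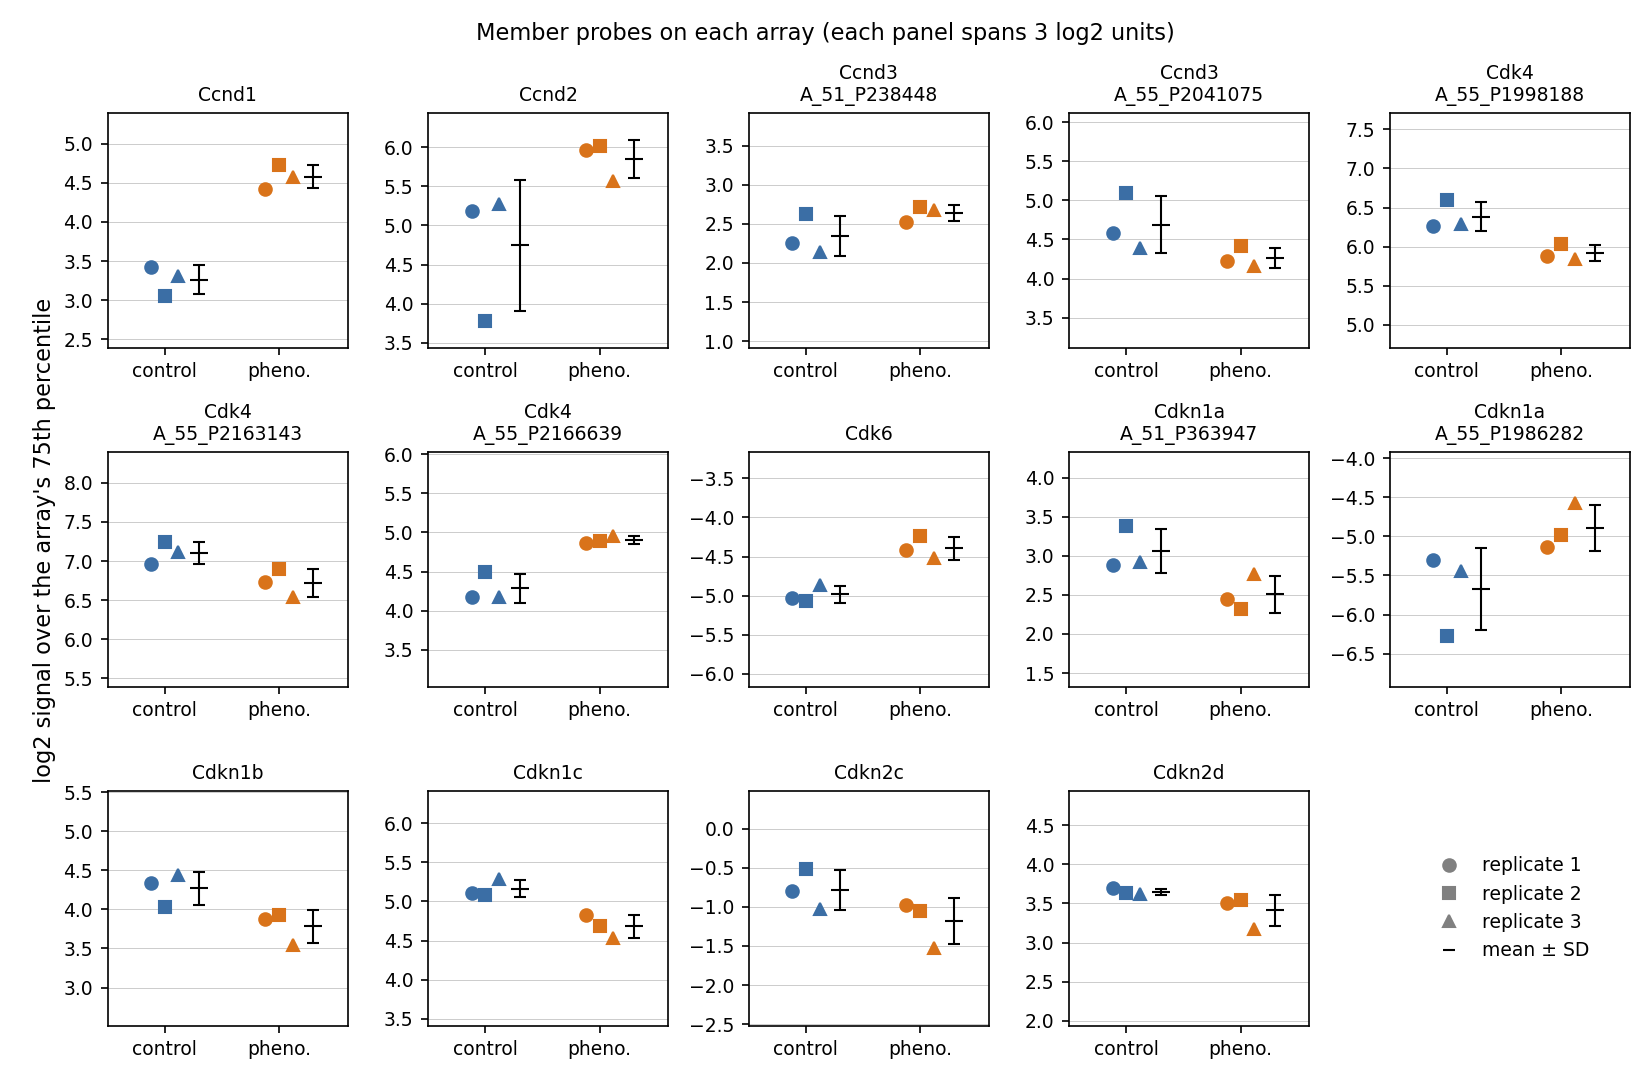
Log2 signal over the array's 75th percentile for the 14 member probes, 1 panel a probe, with control arrays in blue, phenobarbital arrays in orange, a marker shape for each replicate number, and the mean ± SD (n = 3) in black. Each panel spans 3 log2 units. The groups of Ccnd1 lie more than the spread of either group apart, while control replicate 2 lies far below the other controls for Ccnd2.

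Ccnd1 encodes cyclin D1, the D cyclin most tied to mitogen and Wnt signals. Its probe read 3.42, 3.06 and 3.31 on control replicates 1 to 3 and 4.43, 4.73 and 4.58 on phenobarbital replicates 1 to 3. Every phenobarbital array thus lay above every control array, and the gap between the groups was wider than either group's range. Ccnd1 rose by 1.32 ± 0.14 (SE, n = 3 per group), which is 2.49-fold (95% interval 1.96 to 3.15; limma, adjusted p = 0.00489). Before scaling, its control signals spanned 9295 to 13794 and its phenobarbital signals 39859 to 49272. Within slide 1, where control replicate 1 is the single control array, it was higher by 1.16. The fit with the slide as a block gave the same difference with an adjusted p of 0.0481, from 1 control array whose own spread is not measured. Over 21 other settings its log2 fold change ran from 1.16 to 1.51 and its adjusted p from 0.000878 to 0.0524.

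Ccnd2, cyclin D2, is the D cyclin whose RNA and protein are known to reach the basal processes of radial glia. It read 5.18, 3.78 and 5.27 on the control arrays and 5.97, 6.01 and 5.57 on the phenobarbital arrays. The groups did not overlap, but control replicate 2 lay far below the other controls. Its log2 fold change of 1.11 ± 0.41, or 2.15-fold (95% interval 1.09 to 4.23), missed the threshold (limma, adjusted p = 0.108). Without control replicate 2 it was 0.62 ± 0.16 (adjusted p = 0.053), and within slide 1 it was 0.67. It passed in 1 of 21 other settings, with array weights (0.81, adjusted p = 0.019), and its adjusted p ran up to 0.236.

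Ccnd3, cyclin D3, had 2 probes that pointed in opposite directions. The probe for NM_007632 read 2.26, 2.63 and 2.14 on the control arrays and 2.53, 2.72 and 2.68 on the phenobarbital arrays. The probe for NM_001081636, another transcript of the gene, read 4.58, 5.10 and 4.39 on the control arrays and 4.22, 4.41 and 4.17 on the phenobarbital arrays. In both, the groups overlapped. Their log2 fold changes were 0.30 ± 0.15 (95% interval -0.08 to 0.67) and -0.42 ± 0.20 (-0.90 to 0.05), and neither passed (limma, adjusted p = 0.219 and 0.18). With array weights the first of them passed (0.35, adjusted p = 0.0304). The mean of both probes was -0.06 ± 0.17.

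Cdk4, the kinase partner of all 3 D cyclins, was read by 3 probes listed under 1 accession, and they disagreed. Probe A_55_P2166639 read 4.17, 4.50 and 4.18 on the control arrays and 4.86, 4.89 and 4.96 on the phenobarbital arrays, and rose by 0.62 ± 0.13 (limma, adjusted p = 0.0278). Probe A_55_P1998188 read 6.27, 6.60 and 6.29 against 5.88, 6.03 and 5.85, a log2 fold change of -0.47 ± 0.13 that did not pass (0.0587). Probe A_55_P2163143 read 6.96, 7.24 and 7.11 against 6.73, 6.90 and 6.54, or -0.38 ± 0.14 (0.106). On each of the 3 probes the groups did not overlap, so the disagreement was larger than the spread between arrays. The mean over the 3 probes was -0.08 ± 0.12 (adjusted p = 0.687). After quantile normalization probe A_55_P2163143 turned to 0.013. Probe A_55_P1998188 passed as a fall with normexp, with array weights, and with the trended and robust prior. The rise of A_55_P2166639 ended with the slide as a block (0.73, adjusted p = 0.0846) and without any 1 array other than control replicate 2. Without scaling, its signal was 21766 to 25251 on control arrays and 53796 to 56147 on phenobarbital arrays, whereas the signals of A_55_P1998188 overlapped, at 93989 to 108045 and 103798 to 121583.

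The region upstream of Cdk4 is shown because its kinase is a known Myc target and the members of the Myc network were measured too. The window is chr10:127063285-127063534 (GRCm38.p6, plus strand), the 250 bases before the RefSeq start, 5′ to 3′, with each CACGTG, the E-box that Myc and Max and their relatives bind, in capitals.
Cdk4: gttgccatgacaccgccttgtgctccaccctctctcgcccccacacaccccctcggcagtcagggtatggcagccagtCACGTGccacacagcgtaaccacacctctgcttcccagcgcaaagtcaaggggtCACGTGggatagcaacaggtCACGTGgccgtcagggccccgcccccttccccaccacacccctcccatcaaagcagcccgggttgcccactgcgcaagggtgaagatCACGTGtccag
It held 4 E-boxes, which begin 172, 118, 98 and 11 bases before the start. CACGTG reads the same on both strands. Of 32536 distinct windows of the same length in the RefSeq promoter table, 6.04% held at least 1, and 7 windows held 4 or more. Promoter windows were found for 7 of the 10 genes (Ccnd3, Cdk4, Cdk6, Cdkn1a, Cdkn1b, Cdkn2c and Cdkn2d), and among these Cdk6 held 1 E-box and the rest none. The motif was chosen with this sequence in view, so these shares are no test of it. The arrays do not measure binding at these letters.

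Cdk6, the other D cyclin kinase, was dim. It read -5.03, -5.07 and -4.86 on the control arrays and -4.42, -4.23 and -4.52 on the phenobarbital arrays, well above background on all 6. The groups did not overlap, and Cdk6 rose by 0.59 ± 0.12 (limma, adjusted p = 0.0291). Its signals without scaling were 33.3 to 41.3 on controls and at least 78.4 on phenobarbital arrays, where the lowest signal that counted as well above background was 20.8 to 34.3. With normexp, an offset of 50 was added to every signal before the arrays were scaled. The median log2 fold change of the dimmest of 5 equal groups of probes, which holds Cdk6, was -0.07, and -0.31 with normexp. Cdk6 was 0.072 with normexp and missed the threshold, and the part of that shift in this value was not tested. It also ended with the slide as a block (0.63, adjusted p = 0.153) and without any 1 array other than control replicate 2. Over 21 other settings it passed in 9, and its adjusted p ran from 0.00392 to 0.665.

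**Figure D2:**
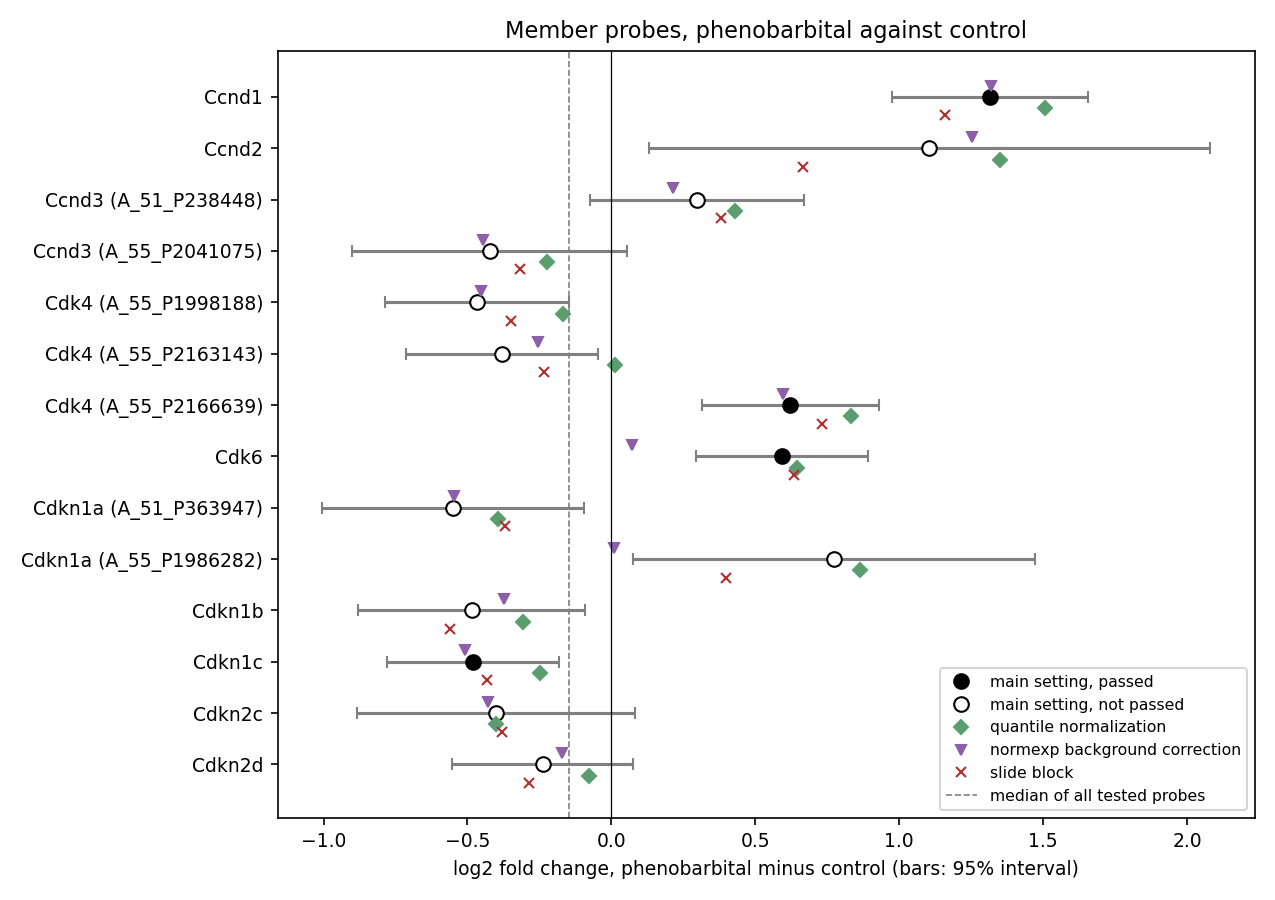
Log2 fold change, phenobarbital minus control, of the 14 member probes, with 95% intervals of the limma fit (n = 3 per group). Filled circles passed and open circles did not. Other markers give the value after quantile normalization, with normexp and with the slide as a block, and the dashed line is the median of all tested probes, -0.15. The 3 Cdk4 probes fall on both sides of 0, and the normexp marker of Cdk6 lies near 0.

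Cdkn1a encodes p21, the CIP/KIP inhibitor best known as a target of p53. Its main probe is printed 10 times on each array. The SD between these spots was 0.017 to 0.039 on the log2 scale, against an SD between arrays of 0.28 in the control and 0.24 in the phenobarbital group, so spot noise was small beside the spread between arrays. This probe, for NM_007669, read 2.88, 3.38 and 2.92 on the control arrays and 2.44, 2.31 and 2.77 on the phenobarbital arrays. The groups did not overlap, but the log2 fold change of -0.55 ± 0.19 did not pass (limma, adjusted p = 0.0933, and 0.016 to 0.372 over the other settings). The second probe, for the transcript NM_001111099, read -5.30, -6.27 and -5.44 against -5.14, -4.99 and -4.57. It was well above background on 2 of 3 control arrays and on all phenobarbital arrays, so it entered the test through the group where it was higher. Its log2 fold change was 0.77 ± 0.29 (adjusted p = 0.114), and 0.010 with normexp. Its direction is not read, since it was dim and had entered through the higher group.

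RefSeq gives Cdkn1a more than 1 start, and the windows before 2 of them are shown because the 2 probes are listed under different transcripts. Which start feeds which probe is not given in the files. Both windows are 250 bases, GRCm38.p6, plus strand, 5′ to 3′. Capitals mark CATG, any 6 bases and CATG, the spacing of cores in a p53 response element, and GGGCGG, the GC box, searched on both strands. The upstream window is chr17:29090729-29090978 and the downstream one chr17:29093519-29093768.
Cdkn1a upstream start: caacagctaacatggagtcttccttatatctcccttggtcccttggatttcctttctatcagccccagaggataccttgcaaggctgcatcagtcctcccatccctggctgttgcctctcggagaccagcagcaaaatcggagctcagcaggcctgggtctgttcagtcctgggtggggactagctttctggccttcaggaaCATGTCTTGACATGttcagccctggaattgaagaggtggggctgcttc
Cdkn1a downstream start: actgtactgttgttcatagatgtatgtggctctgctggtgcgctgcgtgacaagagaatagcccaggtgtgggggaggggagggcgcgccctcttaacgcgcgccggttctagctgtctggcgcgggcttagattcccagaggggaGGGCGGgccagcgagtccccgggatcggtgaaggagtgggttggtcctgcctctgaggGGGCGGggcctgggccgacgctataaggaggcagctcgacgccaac
The upstream window held 1 p53-type pair of cores, beginning 48 bases before the start, and no GC box. The downstream window held 2 GC boxes, 104 and 46 bases before the start, and no such pair. Of 32536 windows, 0.464% held the pair and 33% held a GC box. Both motifs were chosen with the sequences in view, so these shares are no test of them.

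Cdkn1b, which encodes p27, read 4.34, 4.03 and 4.43 on the control arrays and 3.87, 3.93 and 3.55 on the phenobarbital arrays. The groups did not overlap, though control replicate 2 lay close to the phenobarbital range. Its log2 fold change of -0.49 ± 0.16 missed the threshold (limma, adjusted p = 0.0888). It passed without control replicate 2 (-0.61 ± 0.15, adjusted p = 0.0472) and with array weights, and not in the other 19 settings, where its adjusted p reached 0.217.

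Cdkn1c encodes p57, an imprinted inhibitor expressed from the maternal copy. It read 5.11, 5.09 and 5.29 on the control arrays and 4.82, 4.69 and 4.53 on the phenobarbital arrays. All phenobarbital arrays were below all control arrays, and Cdkn1c fell by 0.48 ± 0.12 on the log2 scale, to 0.716 of the control level (95% interval 0.583 to 0.881; limma, adjusted p = 0.0466). This call was the narrowest of the members. It passed in 7 of 21 other settings, ended after quantile normalization (-0.25, adjusted p = 0.159) and with the slide as a block (-0.43, 0.251), and ended whichever single array was left out. Without scaling, the signals of the groups overlapped, at 37888 to 47029 in control and 41756 to 52483 in phenobarbital arrays.

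The INK4 genes did not pass. Cdkn2c, which encodes p18, read -0.80, -0.52 and -1.03 on the control arrays and -0.98, -1.05 and -1.52 on the phenobarbital arrays, with overlapping groups and a log2 fold change of -0.40 ± 0.20 (95% interval -0.88 to 0.08). Cdkn2d, which encodes p19, read 3.70, 3.63 and 3.62 against 3.51, 3.54 and 3.18. Its groups did not overlap, and its log2 fold change was -0.24 ± 0.13 (-0.55 to 0.08). Adjusted p-values were 0.204 and 0.239 (limma). Neither gene passed in any of 21 other settings.

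Signal ratios within an array do not depend on the 1 factor by which each array was scaled. Quantile normalization, which is not 1 factor per array, can change them. The level of such a ratio also holds the probes' own brightness, so only its change between groups is read. The log2 ratio of Ccnd1 to Cdkn1c was -1.70, -2.03 and -1.98 on the control arrays and -0.40, 0.038 and 0.044 on the phenobarbital arrays, a difference of 1.80. That of Ccnd1 to Cdkn1b was -0.92, -0.97 and -1.12 against 0.56, 0.80 and 1.03, also a difference of 1.80. In both, the groups lay further apart than either group's range. The ratio of Ccnd2 to Cdkn1c was 0.071, -1.30 and -0.022 against 1.14, 1.32 and 1.04. The ratio of Ccnd1 to Ccnd2 overlapped between groups, at -1.77, -0.72 and -1.96 against -1.54, -1.29 and -0.995. The overlap came from control replicate 2, the array that lay far below the other controls for Ccnd2. Relative to Cdkn1b and Cdkn1c, Ccnd1 was higher on every phenobarbital array than on any control array. Relative to Ccnd2, each phenobarbital array lay above control replicates 1 and 3 and below control replicate 2. Each difference is that between the log2 fold changes already given for both members, so the ratios add no separate evidence. The pairs of a D cyclin and an inhibitor set a positive log2 fold change over a negative one, so their direction followed from the choice. No pair held Ccnd3. These ratios were not tested.

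**Figure D3:**
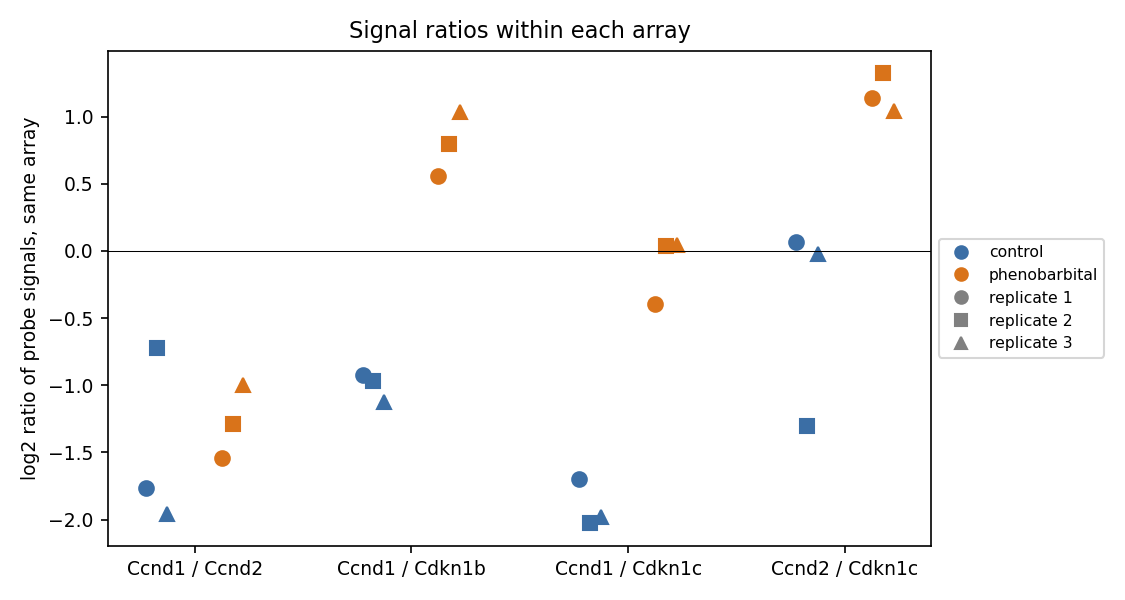
Log2 ratio of 2 probe signals on the same array for 4 pairs of members, with control arrays in blue, phenobarbital arrays in orange and a marker shape for each replicate number. The groups are apart for Ccnd1 over Cdkn1b, Ccnd1 over Cdkn1c and Ccnd2 over Cdkn1c. They overlap for Ccnd1 over Ccnd2, through control replicate 2. No pair holds Ccnd3.

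Brightness moved with the direction of change across the whole array. Among 5396 tested probes with a mean above 3 on the log2 scale, the median log2 fold change was -0.27, with quartiles of -0.40 and -0.12, and 2.46% rose while 18.5% fell. Of the members, 9 probes were this bright. Of these, Cdkn1b, Cdkn1c, Cdk4 probe A_55_P1998188 and the Ccnd3 probe for NM_001081636 lay below the lower quartile, and Cdk4 probe A_55_P2163143 and Cdkn2d lay between the quartiles. Ccnd1, Ccnd2 and the rising Cdk4 probe stood above the upper quartile. After quantile normalization the dimmest and brightest groups had medians of -0.02 and -0.03, and with normexp of -0.31 and -0.22. The part of brightness in the falls was not tested.

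**Figure D4:**
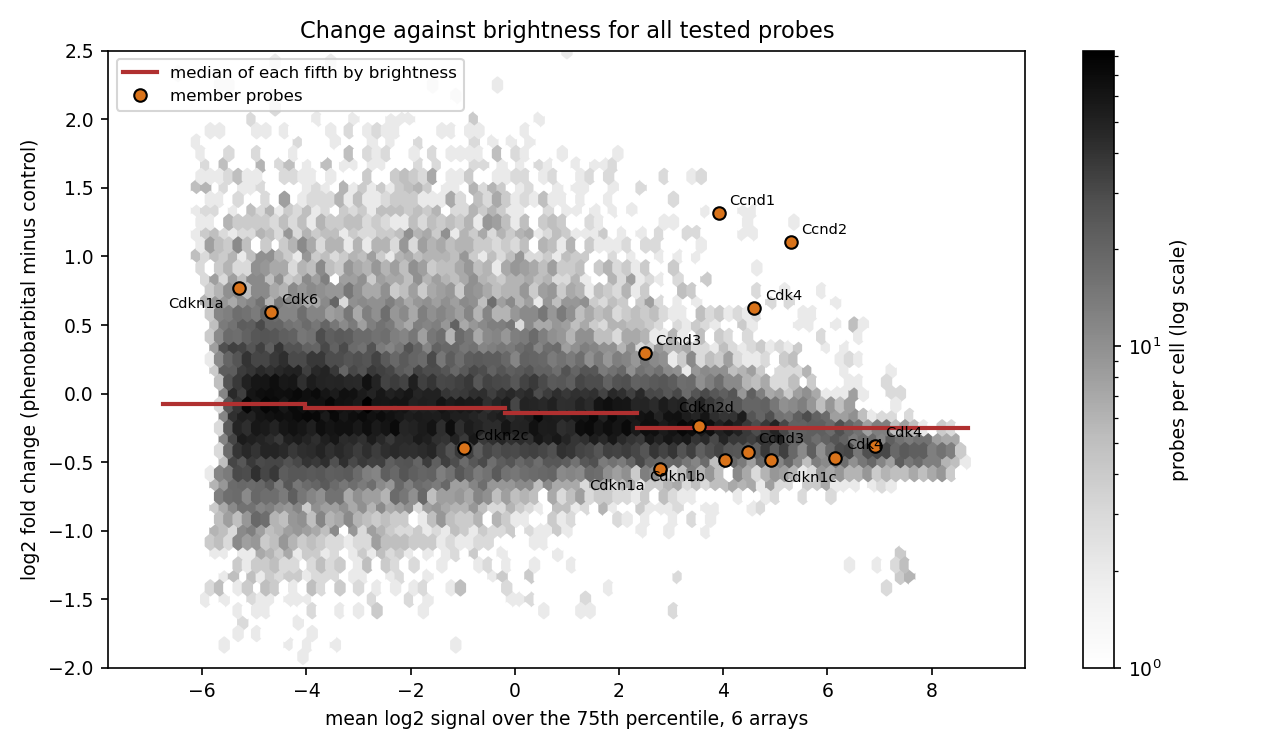
Log2 fold change against mean log2 signal over 6 arrays for all 34672 tested probes (grey, darker where more probes lie), with the 14 member probes as orange points and the median of 5 equal groups of probes by brightness as red lines. The vertical axis is limited to -2 to 2.5. Ccnd1 and Ccnd2 lie far above probes of like brightness, and Cdkn1b and Cdkn1c lie below the red line.

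The surrounding pathway was read from 9 lists of 104 names, of which 100 genes had a tested probe. Of their 130 probes, 11 rose, 18 fell and 101 did not pass, or 22.3% passing against 16.2% of all probes, and their median log2 fold change was -0.18. After quantile normalization 12 rose and 5 fell, and with the slide as a block, where control replicate 1 is the only control and has no spread of its own, 3 had an adjusted p under the threshold, all of them higher. Without control replicate 2, 24 passed, and without any 1 of the other arrays 6 to 8 did. Downstream of the D cyclins, the list of E2F and pocket proteins had 1 rise and 24 probes of 25 that did not pass. The rise was Tfdp1, the partner of E2F proteins in DNA binding, at 1.03 ± 0.19 (limma, adjusted p = 0.0226).

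Of 11 probes for the cyclin E, cyclin A and Cdk2 step, 2 rose and 1 fell. Ccne1, cyclin E1, rose by 0.998 ± 0.152 on 1 probe, its dimmer one, with a control mean of -2.78. Its second probe, with a control mean of 3.25, had 0.053 and missed the threshold. Cdk2, the kinase of cyclins E and A, rose by 1.03 ± 0.22, and Cables1, a Cdk-binding adaptor, fell by 0.42 ± 0.11. Among 7 probes for the Cdk-activating kinase and CDK assembly, Cdk7, the kinase that activates other CDKs, rose by 0.94 ± 0.13, with 0.50 on a second probe that did not pass. The chaperone gene Hsp90ab1 fell by 0.39 ± 0.10 and turned to 0.074 after quantile normalization. Adjusted p-values of these calls were 0.0102 to 0.0492. Of the falls, Cables1 and Hsp90ab1 each passed in 6 of 20 other settings read by probe.

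Of 14 probes for the turnover of D cyclins, 3 rose and 1 fell. The deubiquitinase gene Usp22 rose by 2.00 ± 0.24 (limma, adjusted p = 0.00639). Gsk3b, the kinase that marks cyclin D1 for export and degradation, rose by 1.24 ± 0.16 on 1 probe and had -0.16 and -0.37 on the other 2, so its probes disagreed as those of Cdk4 did. The rising Gsk3b probe was the dimmest, with a control mean of -0.93 against 4.68 and 1.53 for the other 2. Fbxw8, an F-box protein, rose by 0.52 ± 0.11, with 0.17 on a second probe that did not pass. Ddb1, an adaptor of CUL4 ligases, fell by 0.59 ± 0.11. In the list for turnover of p27 and p57, Skp1, the linker of SCF ligases, fell by 0.52 ± 0.10 and Fbxl12, an F-box protein, by 0.54 ± 0.10, while 8 of 10 probes did not pass. The falls of Ddb1, Skp1 and Fbxl12 each passed in 10 of 20 other settings read by probe.

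The p53 list, drawn up around Cdkn1a, had 2 rises and 5 falls among 23 probes. Trp53, which encodes p53, rose by 1.25 ± 0.15 (limma, adjusted p = 0.00618), and passed in all 20 other settings in which it was read by probe. These include the slide as a block, where control replicate 1 is the only control, so a pass there supports no call. Among genes known as p53 targets, Gadd45a fell by 0.93 ± 0.12 and Bbc3 by 0.52 ± 0.12, while Ei24 rose by 1.06 ± 0.17. Of the same 20 settings, Gadd45a passed in 18, Ei24 in 17 and Bbc3 in 7. The median log2 fold change of the list was -0.28. The Myc network list had 1 rise and 5 falls among 11 probes. Myc itself fell by 0.44 ± 0.09, and its antagonists Mxd1 and Mxd4 fell by 0.60 ± 0.12 and 0.58 ± 0.12. Mxd1 had -0.37 on a second probe, which did not pass, and the second probe of Mxd4 fell too. Mxd3, another antagonist, rose by 0.65 ± 0.14. In other settings read by probe, Myc passed in 10 of 20, Mxd1 in 11 of 20 and Mxd3 in 12 of 20. The first probe of Mxd4 passed in 10 of 19.

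Of 21 probes for other cyclins and kinases of G0 and G1, Cdk16 rose by 1.19 ± 0.22, and Cdk5r1, the p35 activator of Cdk5, and Ccnc, cyclin C, fell by 0.44 ± 0.10 and 0.47 ± 0.12. Ccnc had 0.019 on its other probe and Cdk5r1 had -0.39 on its other, and neither passed. Among 8 probes for other INK4 and CDK inhibitors, Cdkn2aip, a binding partner of the Arf protein, fell by 0.58 ± 0.15 and 7 did not pass (limma, adjusted p = 0.0217 to 0.0468 for these 4 calls). Of the falls, Cdkn2aip passed in 7 of 20 other settings read by probe, Ccnc in 8 of 20 and Cdk5r1 in 8 of 19.

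**Figure D5:**
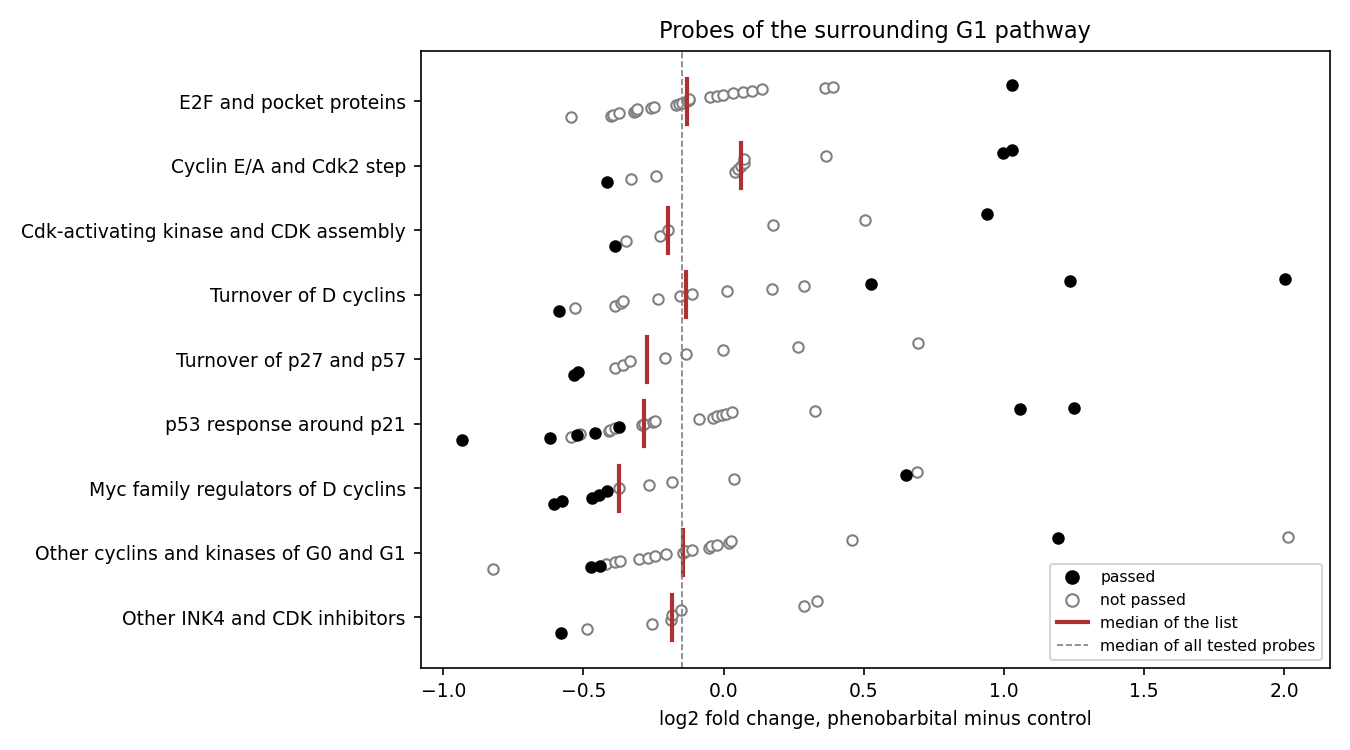
Log2 fold change, phenobarbital minus control, of the 130 tested probes in the 9 pathway lists, 1 row a list. Filled points passed, open points did not, red bars are list medians and the dashed line is the median of all tested probes, -0.15. Most passing points in the p53 and Myc rows lie left of 0, and the list medians lie between -0.37 and 0.062.

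Markers of the labelled cells and of others were read on the same arrays as sums of probe signals, in multiples of each array's 75th percentile. In bulk RNA, fewer cells of a type and less RNA per cell cannot be told apart. The 14 radial glia and progenitor genes were all measured; 2 of their 17 probes rose and 1 fell, and the sum was 578 to 625 on control and 464 to 538 on phenobarbital arrays. Of 12 probes for intermediate progenitors 1 rose and 2 fell, with sums of 143 to 152 and 110 to 115. Of 22 neuronal probes 6 fell and none rose, with sums of 369 to 408 and 242 to 289.

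Of 13 probes for choroid plexus epithelium 10 rose and none fell, with sums of 3.79 to 7.79 and 14.3 to 25.9. Of these rises, 3 (Trpm3, Kcne2 and Calml4) were above background on no control array and entered the test only through the phenobarbital arrays, so they had to be higher there. The other 7 were above background on all 6 arrays. Sums for erythroid cells were 1513 to 2170 and 1034 to 1174, with 5 of 12 probes falling, and for mural cells and meninges 77.2 to 83.7 and 50.2 to 52.5, with 6 of 13 falling. Those for endothelial cells were 92.5 to 97.1 and 55.7 to 66.4, with 4 of 15 falling. The sums for microglia and macrophages overlapped, at 11.5 to 13.6 and 10.8 to 13.7, with 1 of 14 probes rising and 4 falling. In no marker list was a measured gene below background on every array. Apart from microglia, the sums thus moved with the groups as Ccnd1, Cdk6 and Cdkn1c did, and their part in those results was not tested.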

How the data were processed

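RNA of 3 control and 3 phenobarbital samples was labelled with Cy3 (0.2 µg) and hybridised to 1-colour Agilent arrays, per the labels' protocols. Per the file headers, scans were quantified by the authors in Feature Extraction 10.7.3.1 (the submitters' processing notes give 10.7). The deposited spot values are intensity, background-subtracted per array with no scaling across them. The series' value table from the authors is in log2, and once 1 factor per array was removed, 99% of its array-to-array differences matched the scanner files to within 1.9e-06. The constant on which that table centres each probe stays unknown. Its column medians were 0.08, 0.10 and 0.09 for controls and -0.02, -0.09 and -0.08 for phenobarbital replicates 1 to 3.

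The signals were divided by the 75th percentile of 59305 spots outside the controls and log2-transformed. Outlier spots (98 to 198 per array) were dropped, no such spot was saturated, and replicate spots were averaged. Probes entered the test when all arrays of either group read them well above background and each group had at least 2 values. Every probe was tested on its own with lmFit and eBayes of limma 3.58.1 (R 4.3.3), two-sided, no covariates, Benjamini-Hochberg over 34672 probes. Accessions were named through the RefSeq table of GRCm38.p6, which held 26582 of 55681 probes, and promoter sequences are RefSeq's from the same build. Motifs were chosen with the sequences in view.

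The members, the pathway and marker lists and the rule for naming genes (all members, and up to 4 passing genes of each pathway list by smallest p, or the 2 brightest where none passed) were chosen with earlier results of these data known. In all, 21 other settings were tried. The slide was taken from the file headers. The normexp correction used median spot signals. On simulated data with the spreads of these 34672 probes, the fit recovered 41 of 100 probes changed by 1 and 74 of 100 changed by 2 on the log2 scale, and made 9 false calls. Precision is limited by the 3 arrays per group.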

Additional observations from a re-analysis of the deposited data

How the results depend on the processing

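Of 282 values of member probes under other settings, 238 kept their direction and their side of the threshold, 35 no longer passed, 8 newly passed and 1 reversed, the Cdk4 probe A_55_P2163143 at 0.013 after quantile normalization. The member count of 4 became 2 after scaling to the median and after quantile normalization, 1 with no filter on dim probes, 9 with array weights, 1 with the slide as a block (a fit with control replicate 1 as its only control), and 1 to 4 with 1 array left out. The count over all probes of 5618 became 9200 with normexp, 3640 after scaling to the median, 1929 with no filter, 13900 with array weights, 1094 with the slide as a block, and 1374 to 5880 with 1 array left out. The pathway count of 29 became 14 after scaling to the median, 17 after quantile normalization, 15 with the percentile over probes above background on all arrays, 7 with no filter, 55 with array weights, 3 with the slide as a block, and 6 to 24 with 1 array left out. With the replicate number as a block the counts were 0 of the members (9 at an unadjusted p below 0.05), 577 of all probes and 2 of the pathway, and Ccnd1 missed narrowly (limma, adjusted p = 0.0524). Samples of the same number did not deviate together (correlations of 0.063, -0.16 and -0.32), so the number is not taken as a pairing. The causes were not tested, apart from the fewer samples or added terms of these fits. The array whose omission left each count within 1.5 times was control replicate 2 (4, 5880 and 24), while omitting any 1 of the others left 1 member, 1374 to 2488 probes in all and 6 to 8 in the pathway.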
